A study of Mus musculus with 6 samples.

Results

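Endothelin-3 (ET-3) and neurotensin (NT), the peptides added to cultured muscle stem cells (MuSCs) in these samples, each act through a small set of genes for ligands, receptors and enzymes, and 10 of these genes were examined. They were chosen by symbol: the endothelin genes Edn1 and Edn3, the endothelin receptors Ednra and Ednrb, the endothelin-converting enzymes Ece1 and Ece2, the neurotensin gene Nts, and the neurotensin-binding receptors Ntsr1, Ntsr2 and Sort1. Of the 10, 6 have a row among the 18943 genes of the table used here, namely Edn1, Edn3, Ednra, Ece1, Ece2 and Sort1. The other 4, Ednrb, Nts, Ntsr1 and Ntsr2, have no row. MuSCs were FACS-purified from wild-type C57BL/6 mice 8 weeks old and cultured for 5 days with DMSO as the control, or with ET-3 or NT, and 2 libraries per group were analyzed. The labels give 100 nM for both peptides, while the study's methods give higher concentrations. All 3 groups share genotype, strain, age and days in culture.

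Endothelins are made as long precursors, cut first by furin-type proteases and then by an endothelin-converting enzyme, a metalloprotease of the membrane. ET-1, encoded by Edn1, acts through the ET_A receptor (Ednra) and the ET_B receptor (Ednrb), whereas ET-3, encoded by Edn3, binds ET_B with higher affinity than ET_A. NT is cut from the Nts precursor at pairs of basic residues and is bound by the G protein-coupled receptors NTS_1 (Ntsr1) and NTS_2 (Ntsr2), and by sortilin (Sort1), a sorting receptor that crosses the membrane once, is not coupled to G proteins, and carries proteins between the Golgi, endosomes and the cell surface. MuSCs are the resident stem cells of skeletal muscle, and the comparisons address which receptors of the added peptides the cells transcribed and whether peptide genes changed when the peptides were present.

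The active parts of the ligands are short stretches inside longer coding regions. They are shown because Edn3 reads and Edn1 reads come from related genes, and because the stretch of Nts belongs to the peptide that was added while its gene has no row. In the annotated mouse transcripts (GENCODE, build GRCm38) the 21 codons of mature ET-1 lie at chr13:42303649-42303711, plus strand, and those of mature ET-3 at chr2:174761749-174761811, plus strand, each within exon 2 of 5. Capitals in the first pair mark the 13 of 63 bases at which Edn1 and Edn3 differ, and 15 of the 21 codons give the same residue in both. The 13 codons of NT, together with the codons of the basic pairs on either side, which are in capitals, lie in exon 4 of 4 at chr10:102482349-102482399, minus strand.
Edn1: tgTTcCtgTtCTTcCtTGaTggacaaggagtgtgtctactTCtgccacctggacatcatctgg
Edn3: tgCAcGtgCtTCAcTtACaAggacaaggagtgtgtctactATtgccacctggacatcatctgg
Nts: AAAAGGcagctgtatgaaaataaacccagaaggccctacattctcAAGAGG

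The values were taken to be read counts on exons, multiplied by 1 factor per library and rounded. No source gives these factors, and they were inferred from the values, so all read numbers below rest on them. Totals of the values were 4214458 to 4600575 per library, which on this basis correspond to 3629306 to 5396581 reads on genes. Differences are given as log2 fold changes on the log2(value + 1) scale with their standard errors (SE), tested with limma over all 6 libraries and adjusted by the Benjamini-Hochberg method over 13921 genes. A gene was called when its adjusted p was at most 0.05 and it differed at least 2-fold. All 10 markers of MuSCs and myoblasts had rows, and their values summed to 9569 to 10485 under DMSO, 9231 to 9522 under ET-3, and 7965 to 8316 under NT, Itga7 being the highest. Single genes of this list lay apart in opposite directions, such as Pax7 (857 and 1070 under DMSO, 1599 to 1754 in treated libraries) and Cdh15 (1547 and 1746 against 436 to 496), named after their values were seen. The ET-3 pair and the NT pair each differed by no more than sampling of reads would give (mean chi-square per gene of 0.885 and 0.927, where 1 is sampling alone), while the DMSO pair differed by more (1.44). The paper describes the points of its RNA-seq plot as means of triplicate biological samples, whereas 2 libraries per group were analyzed here. Nothing in the sources used here says whether these libraries came from separate cultures, so p-values measure the spread between these libraries, which may be technical. The calls were therefore also made in a fit on pair means, in which the ET-3 libraries enter as their mean and the NT libraries as theirs. Each treated arm then holds 1 value, which is assumed to vary like the DMSO pair, the only source of spread within a group.

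Of the peptide genes, Edn3 rose in both treated groups from a level of a few reads. Edn3 (chr2:174760619-174784042) had values of 1 and 2 under DMSO, 11 and 7 under ET-3, and 17 and 13 under NT. All 4 treated libraries lay above both DMSO libraries, and the ET-3 and NT libraries did not overlap. Edn3 rose by 2.00 on the log2 scale under ET-3 (SE 0.42, limma, Benjamini-Hochberg adjusted p = 0.00192) and by 2.70 under NT (SE 0.42, limma, adjusted p = 0.000291). Edn3 passed the filter on low values, a mean of at least 5, through its treated libraries.

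The Edn3 difference rests on few reads. Both DMSO libraries together held 3 reads, those under ET-3 held 15 and those under NT held 37. Scaled for the library factors, the ratio to DMSO was 5.39 under ET-3 (exact 95% binomial interval 1.52 to 29.0) and 9.51 under NT (3.01 to 48.2), and these intervals cover counting error only. In the fit on pair means its log2 fold changes were 2.03 and 2.71, about as in the fit of all libraries, but Edn3 no longer passed (limma, adjusted p = 0.0688 under ET-3 and 0.0533 under NT). Added peptide is not read by RNA-seq, so these values are transcripts of the cells.

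Edn1, which encodes ET-1, the ligand best known from endothelium, was also low. Edn1 (chr13:42301476-42307990) had values of 17 and 10 under DMSO, 21 and 14 under ET-3, and 23 and 25 under NT. The DMSO and ET-3 libraries overlapped, and the NT libraries lay above all others. The log2 difference from DMSO was 0.37 under ET-3 (SE 0.34, limma, adjusted p = 0.364) and 0.83 under NT (SE 0.34, limma, adjusted p = 0.0550). Neither passed the threshold. The NT value was 1.18 without DMSO replicate 1 (limma, adjusted p = 0.0436) and 0.47 without DMSO replicate 2 (0.281), each with a control arm of 1 library that takes its spread from the other groups.

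Nts, the neurotensin gene (chr10:102481756-102490486), has no row, so whether NT or ET-3 altered its transcript was not analyzed here.

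**Figure D1:**
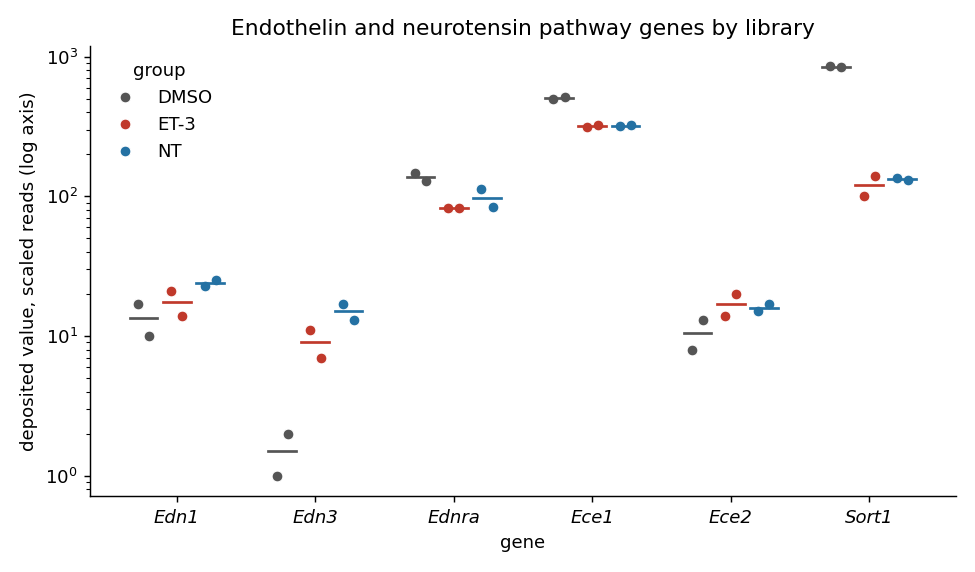
Deposited values (scaled reads, log axis) of the 6 genes with a row, 1 point per library and a bar at the group mean, for DMSO, ET-3 and NT (2 libraries each). Sort1 dropped from 841 or more under DMSO to 139 or less with either peptide, while Edn3 stood at 1 and 2 under DMSO and at 7 to 17 in the treated libraries.

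Among the receptors of ET-3, transcripts of ET_A were measured in all 6 libraries. Ednra (chr8:77663031-77724464), the gene of ET_A, had values of 148 and 128 under DMSO, 82 and 83 under ET-3, and 112 and 84 under NT. Both DMSO libraries lay above all treated libraries, and the NT libraries spanned a wider range than the ET-3 libraries. Ednra fell by 0.73 on the log2 scale under ET-3 (SE 0.15, limma, adjusted p = 0.00193) and by 0.50 under NT (SE 0.15, limma, adjusted p = 0.0162), both less than 2-fold.

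Under ET-3 the size of the fall of Ednra held when single libraries were left out, from -0.84 to -0.63, although without DMSO replicate 1, which leaves a control arm of 1 library, its limma adjusted p was 0.0686. Under NT the size varied from -0.71 to -0.30, and the threshold was missed without DMSO replicate 1 (-0.40, limma, adjusted p = 0.181), without DMSO replicate 2 (-0.60, 0.0773) and without NT replicate 2 (-0.30, 0.152). In the fit on pair means Ednra had -0.73 under ET-3 and -0.49 under NT, with limma adjusted p of 0.0715 and 0.124. Of the exonic bases of Ednra, 91 (1.66%) also belong to a gene on the opposite strand, 4933431K23Rik, and the sources differ on whether the libraries kept strand.

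Ednrb, the gene of ET_B (chr14:103814625-103844402), has no row. Neither do the G protein-coupled receptors of NT, Ntsr1 (chr2:180499976-180544980) and Ntsr2 (chr12:16653382-16660227). Every gene in the table reaches a value of at least 2 in some library, which is 0.435 to 0.475 CPM of a library's total, and 0 genes are listed at 0 throughout. Of 21951 annotated protein-coding genes, 7712 likewise have no row. What Ednrb, Ntsr1 and Ntsr2 would have read in these libraries was not analyzed here, and no level or upper limit is given for them.

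The study designed RT-qPCR primers for 6 of the 10 genes, including all 4 without a row, and the primers are shown because they mark the part of each transcript that such an assay reads. Both primers of each pair matched annotated transcripts of the named gene exactly. The amplicon of Ednrb covers 102 bases of exon 2 of 8 (chr14:103843320-103843421), that of Ntsr1 128 bases of exon 1 of 4 (chr2:180500487-180500614), that of Ntsr2 199 bases of exon 1 of 4 (chr12:16653602-16653800) and that of Nts 112 bases of exon 3 of 4 (chr10:102484974-102485085). That of Edn3 covers 161 bases of exon 2 of 5 (chr2:174761616-174761776) and runs into the ET-3 coding stretch printed above. The amplicon of Ednra, 261 bases, alone of the 6 spans an exon junction, from exon 4 to exon 5 of 5 (chr8:77671466-77674969). Each pair matched only part of the annotated transcripts of Edn3 (2 of 4), Ednra (1 of 2) and Ntsr2 (3 of 5), and all of those of Ednrb, Ntsr1 and Nts.
Ednrb forward: gtggcttcttgggggtatgg
Ednrb reverse: tcttagtgggtggcgtcatta
Ntsr1 forward: cagttcggactggagacgatg
Ntsr1 reverse: accagcaccttggaataaatgtc
Ntsr2 forward: ttcaccgcgctctattcgc
Ntsr2 reverse: aggggtagtgggaccacac
Nts forward: gcaagtcctccgtcttggaaa
Nts reverse: tgccaacaaggtcgtcatcat
Edn3 forward: ccctggtgagaggattgtgtc
Edn3 reverse: ccttgtccttgtaagtgaagcac
Ednra forward: tacaagggcgagctgcatag
Ednra reverse: ggcgtgctgatttccaaagg

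Of the NT-binding receptors, Sort1 alone has a row, and it showed the largest drop of the 6 genes under both peptides. Sort1 (chr3:108284082-108361511) had values of 851 and 841 under DMSO, 101 and 139 under ET-3, and 135 and 130 under NT. The groups with peptide lay far below DMSO and overlapped each other. Sort1 fell by 2.83 on the log2 scale under ET-3 (SE 0.12, limma, adjusted p = 4.07e-08) and by 2.67 under NT (SE 0.12, limma, adjusted p = 6.62e-08). As a ratio to DMSO this was 0.143 under ET-3 (exact 95% binomial interval 0.123 to 0.165) and 0.156 under NT (0.138 to 0.176). Scaled to the library total, the mean level of Sort1 was 184.5 CPM under DMSO, 27.9 CPM under ET-3 and 31.3 CPM under NT. The call held in all 16 alternatives, including the fit on pair means, where the limma adjusted p was 0.0217 under ET-3 and 0.0242 under NT. An antisense gene overlaps 338 (4.47%) of its exonic bases.

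The sum of smooth muscle and pericyte markers was lower beside Sort1 and Ednra, with or without its highest marker. The endothelial sum was lower with its highest marker and higher without it. The Schwann cell sum was lower with its highest marker, but without it the NT libraries overlapped DMSO. The fibroadipogenic sum was lower only without its highest marker, and single markers of that list went both ways. Without its highest marker the macrophage sum was lower under both peptides, and with it only under NT. All 8 markers of smooth muscle cells and pericytes had rows, and their values summed to 4423 to 5032 under DMSO, 1032 to 1071 under ET-3, and 1129 to 1209 under NT, Notch3 being the highest. Without Notch3 they summed to 3026 to 3259, 727 to 787 and 776 to 800. Not all 8 shared in this, as Myh11 (0 to 4) and Kcnj8 (0 to 2) were near 0 in every library. Cspg4 differed less, with 610 and 612 under DMSO and 433 to 509 in the treated libraries. Of 11 endothelial markers 7 had rows, with sums of 320 to 372, 170 to 183 and 171 to 208, but without Prox1, the highest, the sums were 72 to 74, 128 to 135 and 111 to 145. That rise came mainly from Tek (2 and 1 under DMSO, 68 and 59 under ET-3, 42 and 70 under NT). Vwf went the other way (38 and 52, 14 and 26, 13 and 21). Tie1, Emcn, Cldn5 and Lyve1 had no row. The part of other cells in the values of Sort1, Ednra, Ece1, Edn1 and Edn3 was not tested, and in bulk RNA fewer cells of a type and less RNA per cell cannot be told apart.

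The remaining marker lists were low or dominated by 1 gene. Of 8 fibroadipogenic markers 5 had rows (148 to 165 under DMSO, 143 to 154 under ET-3 and 180 in both NT libraries, with Smoc2 the highest, and Lum, Dpt and Pi16 without a row). Without Smoc2 the sums were 136 to 147, 64 to 76 and 82 to 90. That fall came from Col15a1 (80 and 82, 1 and 1, 0 and 1) and Dcn (9 and 17, 0 and 2, 0 and 0). Ly6a went the other way (27 and 18, 37 and 43, 38 and 52), as did Smoc2 (12 and 18, 79 and 78, 98 and 90). Pdgfra did not fall (20 and 30, 26 and 30, 44 and 37). Of 7 Schwann cell markers 4 had rows (3376 to 3552, 1730 to 1781 and 1689 to 1815, nearly all from Ncam1, and Sox10, S100b and Cdh19 without a row). Without Ncam1 they summed to 39 to 50, 17 to 23 and 30 to 40. Of 7 macrophage markers 3 had rows (34 to 35, 21 to 45 and 27 to 28, with Cd68 the highest, and Ptprc, Adgre1, Lyz2 and C1qa without a row). Without Cd68 the other 2 summed to 20 in both DMSO libraries and to 4 to 5 under either peptide.

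Of the converting enzymes, Ece1 was abundant and fell by a similar amount with both peptides. Ece1 (chr4:137862237-137965229), the main enzyme that releases mature endothelin, had values of 496 and 516 under DMSO, 311 and 326 under ET-3, and 318 and 323 under NT. All treated libraries lay below both DMSO libraries, and the ET-3 and NT libraries overlapped. Ece1 fell by 0.67 on the log2 scale under ET-3 (SE 0.06, limma, adjusted p = 4.24e-06) and by 0.66 under NT (SE 0.06, limma, adjusted p = 5.08e-06), less than 2-fold in each case. It passed the adjusted p in all 16 alternatives, with the highest values in the fit on pair means (limma, 0.0319 and 0.0343).

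Ece2, a related converting enzyme with an acidic optimum, had low values. Ece2 (chr16:20629828-20646485) read 8 and 13 under DMSO, 14 and 20 under ET-3, and 15 and 17 under NT. Both treated groups lay above DMSO without overlap, but the differences missed the threshold, with log2 fold changes of 0.66 (SE 0.34, limma, adjusted p = 0.118) and 0.60 (SE 0.34, limma, adjusted p = 0.157). The gene Gm49333, on the same strand and without a row, covers 2937 (57.5%) of the exonic bases of Ece2, and the study left out reads that fell on several genes, so the level of Ece2 is uncertain.

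Counted over the 6 genes with a row, 1 rose (Edn3) and 3 fell (Ednra, Ece1, Sort1) at an adjusted p of at most 0.05 under ET-3, and the counts were the same under NT. Among all 13921 genes tested, 30.6% rose and 33.2% fell under ET-3 at that threshold, and 29.7% rose and 32.5% fell under NT. With the 2-fold requirement, Edn3 was called higher and Sort1 lower in both comparisons, against 6.62% of all genes higher and 14.9% lower under ET-3, and 7.3% higher and 13.2% lower under NT. Edn3 was tested at all only because of its treated libraries, and its call was lost in the fit on pair means. The ET-3 and NT comparisons share the DMSO libraries and are given side by side.

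**Figure D2:**
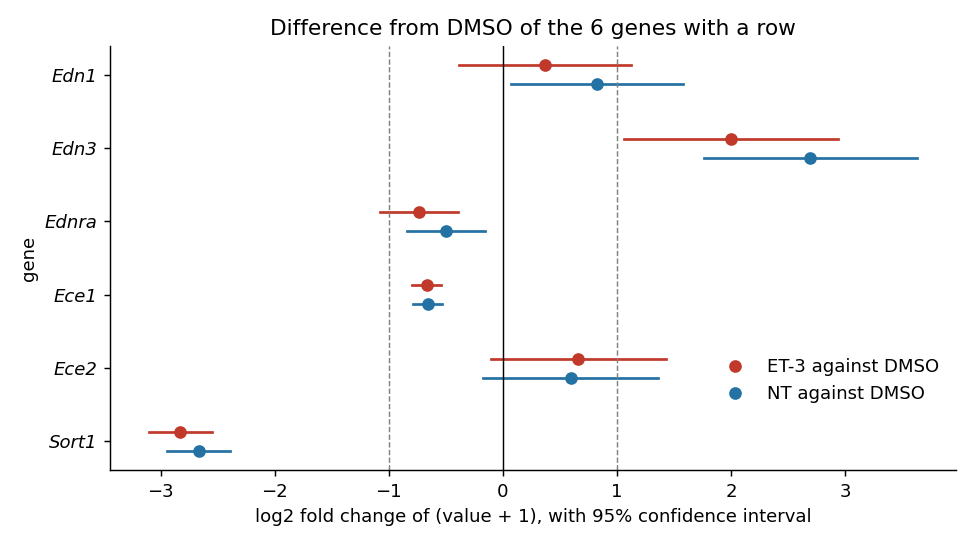
Log2 fold change of (value + 1) against DMSO for the 6 genes with a row, with 95% confidence intervals from the limma fit (points, ET-3 in red and NT in blue; dashed lines, 2-fold). Sort1 lies beyond 2-fold lower at -2.83 and -2.67 and Edn3 beyond 2-fold higher at 2.00 and 2.70, whereas the intervals of Ece1 lie between the 2-fold line and 0.

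Differences between the peptides were not detectable for these genes. In the comparison of NT against ET-3, 0 of the 6 genes passed the limma adjusted p, 0 had an unadjusted p under 0.05, and 0 passed with voom weights, against 2.69% of all genes that passed the adjusted p in either direction. Edn3 had the largest log2 difference, 0.70 higher under NT (SE 0.42, 95% interval -0.24 to 1.63, limma, unadjusted p = 0.128). The intervals reached from -0.11 to 0.57 for Ednra, from -0.12 to 0.44 for Sort1 and from -0.12 to 0.14 for Ece1. For Edn1 and Ece2 they reached from -0.29 to 1.21 and from -0.83 to 0.70, which leaves room for differences of that size.

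Levels can be compared between genes per kilobase of annotated exon. With DMSO, Sort1 had the highest level, 112 per kilobase, above that of 80.0% of the 14216 protein-coding genes ranked. Ece1 followed at 95.5, Ednra at 25.2, Edn1 at 6.31, Ece2 at 2.06 and Edn3 at 0.365, above 4.7% of genes. No neighbours in this order overlapped between the 2 libraries. With ET-3 the level of Sort1 was 15.9 and that of Ednra 15.1, under NT 17.5 and 17.9, and in both groups their libraries overlapped. Ece1, at 60.1 and 60.5, had the highest level of the 6 with either peptide. Edn3 reached 2.19 under ET-3 and 3.65 under NT, above 18.3% and 21.4% of genes, and its NT libraries overlapped those of Ece2. The full exonic length was used for Ece2, although Gm49333 covers 57.5% of it. The place of Ece2 in this order, and its overlap with neighbours, are therefore uncertain.

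The transcripts nearest to Edn3 and Sort1 in pattern were found from the 6 values of log2(value + 1), each minus the DMSO mean. For Edn3 they were C230035I16Rik (Euclidean distance 0.471), Atf7ip2 (0.534) and S100a3 (0.647). These 3 were as low as Edn3, with values of 1 to 3 under DMSO, 5 to 10 under ET-3 and 10 to 17 under NT. For Sort1 they were Pnmal2 (0.222), Col19a1 (0.252) and Lzts1 (0.253). Pnmal2 had values of 1148 and 1291 under DMSO, 161 and 188 under ET-3, and 200 and 193 under NT, and Col19a1 had 974 and 834, 123 and 145, and 139 and 134. The likeness is a description over 6 libraries, 4 of them treated.

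**Figure D3:**
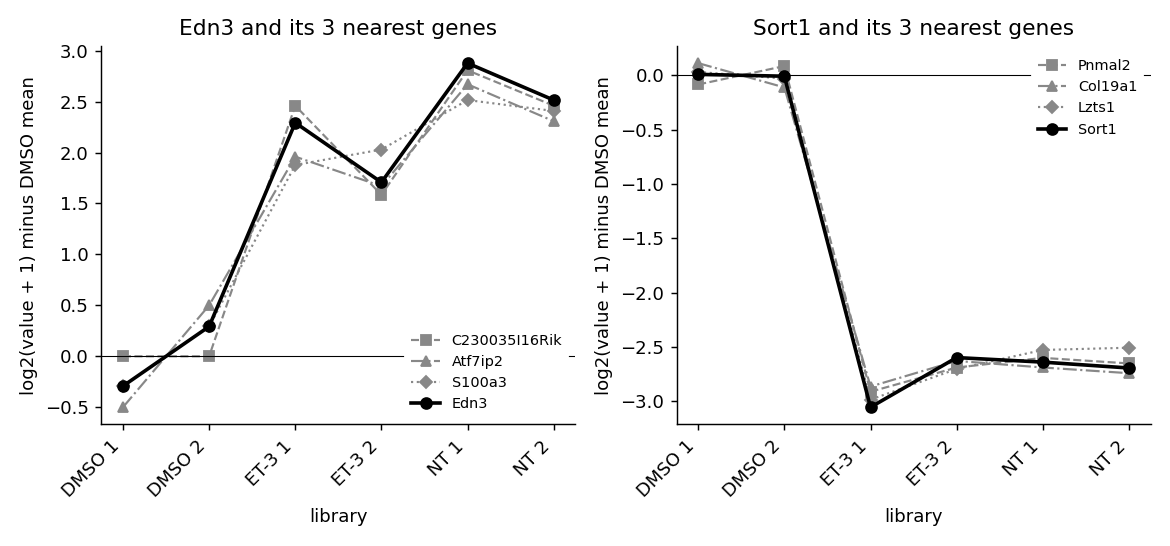
Log2(value + 1) minus the DMSO mean in each library for Edn3 (left) and Sort1 (right) in black, each with the 3 genes of nearest pattern in grey; lines join points only as a guide. The Sort1 panel shows all 4 treated libraries well below 0 for all 4 genes, under ET-3 replicate 1 the lowest for Sort1, and the Edn3 panel shows the NT libraries highest.

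Of 79 other genes of these pathways, in 6 lists, 63 were tested. With ET-3, 20 of the 63 rose and 19 fell at the adjusted p, and 7 and 11 also differed at least 2-fold. With NT, 21 rose and 22 fell, of which 8 and 10 at least 2-fold. The list medians of log2 fold change were -0.0006 (ET-3) and -0.01 (NT), beside -0.01 in each comparison over all genes. The shares over all genes tested were those given above, 30.6% and 33.2% under ET-3 and 29.7% and 32.5% under NT at the adjusted p, and 6.62% and 14.9%, and 7.3% and 13.2%, at least 2-fold. In the fit on pair means, 13 and 11 genes were called in place of 18 and 18. Of those named below as at least 2-fold changed, Pcsk2, Pcsk6, Ngfr, Gga2, Rgs5, Rgs4, Grk6, Grk4, S1pr3 and Ptger4 were called there under both peptides, and Qpct under ET-3 only.

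In the peptide maturation list, 2 genes rose and 4 fell of 10 tested in each comparison (median log2 fold change -0.40 under ET-3 and -0.21 under NT). Pcsk2, the convertase that cuts many neuropeptide precursors at basic pairs, fell from 71 and 74 under DMSO to 11 and 17 under ET-3 and 10 and 15 under NT. Pcsk6, a proprotein convertase of the secretory pathway, rose from 59 and 49 to 194 and 185 and to 218 and 229. Qpct, which forms the pyroglutamate end that NT carries, fell from 80 and 70 to 26 and 30 and to 27 and 40. The log2 fold changes of these 3 genes were -2.32, 1.80 and -1.39 under ET-3 and -2.47, 2.03 and -1.16 under NT (limma, adjusted p of at most 0.00160). Under NT the call of Qpct was lost in the fit on pair means (-1.14, limma, adjusted p = 0.0514) and without DMSO replicate 1 or NT replicate 1 (-1.44 to -0.89 over all libraries left out, adjusted p up to 0.0516). Furin itself had values of 1203 to 1404 and did not pass in either comparison (limma, adjusted p = 0.355 and 0.0667).

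In the peptide breakdown list, 2 genes rose and 3 fell of 7 tested in each comparison (medians -0.20 and -0.01). Mmel1, a neprilysin-like metalloprotease, was the only gene of this list called in both, with values of 9 and 25 under DMSO, 1 and 2 under ET-3, and 3 and 0 under NT (log2 fold changes -2.72 and -3.01, limma, adjusted p = 0.00679 and 0.00398). Mmel1 passed the filter on low values only through its DMSO libraries, where it was high. It was not called in the fit on pair means (-2.69 in both, limma, adjusted p = 0.127 and 0.131), nor without DMSO replicate 2, ET-3 replicate 1 (for ET-3) or NT replicate 2 (for NT), where the adjusted p reached 0.143 and 0.113.

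In the list of the sortilin family and its partners, 4 genes rose and 2 fell under ET-3 and 4 rose and 4 fell under NT, of 14 tested (medians -0.05 and -0.08). Ngfr, the p75 neurotrophin receptor, with which sortilin forms a receptor for pro-neurotrophins, rose while Sort1 fell, from 93 and 115 under DMSO to 609 and 600 under ET-3 and 591 and 644 under NT. Ngfr rose by 2.54 (ET-3) and 2.56 (NT) on the log2 scale (limma, adjusted p = 1.20e-08 and 1.25e-08). Gga2, an adaptor that sorts sortilin at the Golgi, fell from 1356 and 1451 to 671 and 627 and to 678 and 652 (-1.11 and -1.08, limma, adjusted p = 7.74e-08 and 1.04e-07).

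In the list of G alpha subunits and their effectors, 0 genes of 14 tested were called. At the adjusted p alone, 5 rose and 3 fell under ET-3 and 5 rose and 4 fell under NT (medians 0.09 and 0.11). Gna12, whose protein G_12 couples to such receptors, had values of 388 and 399 under DMSO, 603 and 522 under ET-3, and 541 and 547 under NT (log2 fold changes 0.51 and 0.47, limma, adjusted p = 9.62e-05 and 0.000191). Gna13, encoding the related G_13, had 660 and 603, 774 and 727, and 781 and 756 (0.25 and 0.28, limma, adjusted p = 0.00336 and 0.00161). Both rose with each peptide by less than 2-fold, and in the fit on pair means Gna12 passed under both (limma, adjusted p = 0.0348 under ET-3) and Gna13 did not (0.147 and 0.127).

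In the list of receptor desensitization, 4 genes rose and 5 fell of 11 tested in each comparison (medians -0.02 and 0.10). The regulators of G protein signaling Rgs5 and Rgs4 fell, Rgs5 from 117 and 150 under DMSO to 4 and 2 under ET-3 and 3 and 5 under NT, and Rgs4 from 154 and 171 to 19 and 20 and to 29 and 28. Rgs5 is also on the list of pericyte markers. Grk6, a kinase that phosphorylates active receptors, rose from 287 and 286 to 1155 and 1072 and to 977 and 972. Grk4, of the same family, fell from 24 and 26 to 7 and 5 and to 7 and 12. The log2 fold changes of Rgs5, Rgs4, Grk6 and Grk4 were -5.11, -2.99, 1.95 and -1.91 under ET-3 and -4.77, -2.47, 1.76 and -1.35 under NT (limma, adjusted p of at most 0.00829). Under NT the call of Grk4 was lost without DMSO replicate 1, DMSO replicate 2 or NT replicate 1 (-1.70 to -0.999 over all libraries left out, limma, adjusted p up to 0.0701).

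Of 16 other receptors for which the study had RT-qPCR primers, 13 had a row but only 7 were tested, because the rest had a mean value under 5 (3 rose and 2 fell under ET-3, 4 rose and 2 fell under NT, medians 0.23 and 0.75). Calcr, the calcitonin receptor, a known marker of quiescent MuSCs, had values of 1 and 0 under DMSO, 1 and 0 under ET-3, and 3 and 3 under NT, and was not tested. S1pr3, a receptor of sphingosine-1-phosphate, fell from 32 and 27 to 6 and 8 and to 9 and 6 (-1.94 and -1.86, limma, adjusted p = 0.000657 and 0.000898). Ptger4, a prostaglandin E receptor, rose from 68 and 78 to 200 and 226 and to 224 and 220 (1.53 and 1.59, limma, adjusted p = 9.36e-07 and 7.60e-07). P2ry14, a receptor of UDP-sugars, rose from 17 and 8 to 32 and 34 and to 35 and 30, and Bdkrb1, the bradykinin B1 receptor, from 23 and 34 to 66 and 66 and to 60 and 73. Their limma adjusted p was at most 0.00459. In the fit on pair means neither was called (P2ry14 1.42 under ET-3, limma, adjusted p = 0.196 and 0.203, Bdkrb1 1.21 and 1.22, 0.112 and 0.114). Without DMSO replicate 2 for P2ry14, and without DMSO replicate 1 for Bdkrb1, the log2 fold changes were under 2-fold, at 0.92 and 0.89 and at 0.94 and 0.94. Under NT P2ry14 was not called without NT replicate 1 either (limma, adjusted p up to 0.0562).

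**Figure D4:**
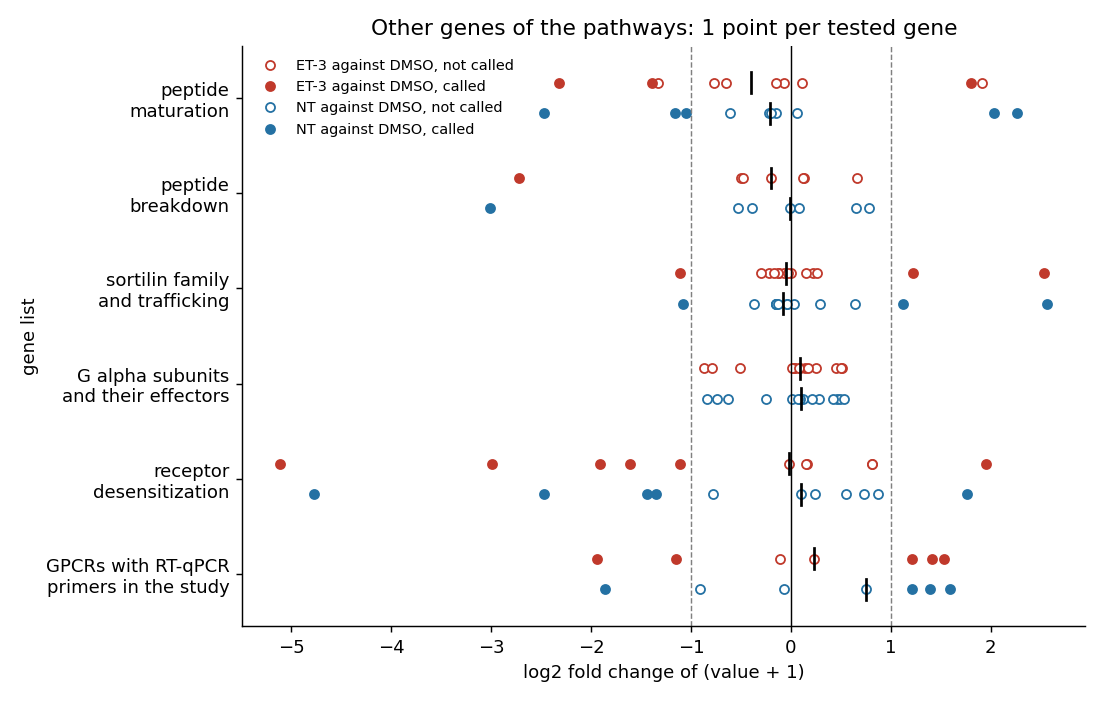
Log2 fold change of (value + 1) against DMSO for the 63 tested genes of 6 lists, 1 point per gene (ET-3 in red and NT in blue; filled, called; black tick, list median; dashed lines, 2-fold). Points of G alpha subunits and their effectors all lie within 2-fold, and Rgs5 is the lowest point of the plot at -5.11 and -4.77.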

How the data were processed

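RNA of FACS-isolated MuSCs was sequenced as single-end reads. The deposited signal values, made by the authors, are whole numbers per gene and library, taken here as 1 factor times a read count. The submitters' processing notes name Trimmomatic 0.38, STAR 2.7.7a, featureCounts 1.6.5, DESeq2 1.30.0 and mm10, with a SMART-Seq HT kit, whereas the paper names Reaper and a stranded kit, so strand use is uncertain. Reads on several genes or regions were left out per the paper. The design text speaks of triplicates, and 2 libraries per group were analyzed here. A planned count test was not applicable to scaled values.

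Values were tested with limma 3.58.1 in R 4.3.3 (mean-variance trend, log2(value + 1), mean of at least 5, all 6 libraries in 1 fit without a block). The filter removed 5022 genes. Thresholds for a call were 0.05 for the adjusted p and 2-fold. Reads were recovered by dividing by factors fitted to how often each number occurs (0.781 to 1.19). On simulated data for ET-3 against DMSO, 195 of 200 changed genes were called in the right direction among 13957 genes tested, with 3 false calls. The changed genes were drawn from those well read under DMSO, and all were changed by more than 2-fold. Far fewer genes were changed than in the data, with the same spread set for all groups. These rates therefore do not apply to genes of few reads, such as Edn3. Positions, exons and lengths came from GENCODE vM21 (GRCm38), whose positions equal those in the table for all 6 members with a row. Primer sequences came from the study's primer list. Tables and plots were made in Python 3.11.15 (pandas 2.3.3, numpy 2.4.6, scipy for intervals, matplotlib 3.10.9).

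The members and lists were chosen with earlier results of these data known. Named are all 10 members, genes of the lists called in both comparisons (at most 4 per list, by mean absolute log2 fold change), Gna12, Gna13, Calcr and S1pr3, and the 3 genes nearest in pattern to each called member. Furin, Pax7, Cdh15, Tek, Vwf, Myh11, Kcnj8, Cspg4, Col15a1, Dcn, Ly6a, Pdgfra and genes overlapping members were named in addition, after their values were seen. Some results are not reported here. Alternatives covered filter, scaling, pseudocount, voom weights, a replicate block, 2-group fits, averaged pairs, the fold threshold, exonic length and each library left out.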

Additional observations from a re-analysis of the deposited data

How the results depend on the processing

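The number of the 6 genes called was 2 with ET-3 and 2 with NT, and became 1 in each when each treated pair was averaged and counted as 1 sample, 1 in each with a mean value of at least 20, which removes Edn1, Edn3 and Ece2, and 4 in each with no fold threshold. Leaving out each library in turn gave 2 with ET-3, 2 to 3 with NT, where Edn1 joined without DMSO replicate 1, and 0 for NT against ET-3. The other pathway genes called were 18 in each comparison, 39 with ET-3 and 43 with NT with no fold threshold, 11 with NT when treated pairs were averaged, and 15 to 19 with ET-3 and 13 to 17 with NT when each library was left out. Of the alternatives for single genes, 266 kept their side of the threshold, 8 lost it (Edn3 and Ednra), 5 gained it (Edn1 with NT) and 0 reversed. Edn1 with NT passed when scaled to library totals (limma, adjusted p = 0.0329), to the upper quartile (0.0492), with pseudocount 5 (0.0380) and with voom weights (0.0412), and over its alternatives the adjusted p ranged from 0.0329 to 0.281. Scaling to library totals moved the median log2 fold change of all genes from -0.01 to 0.08 with ET-3 and to 0.10 with NT. With the length of the longest transcript, 13 of 18 levels per kilobase moved by more than 1 SD, and with ET-3 Ednra then ranked above Sort1.

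Replicate numbers are shared by name only: same-numbered libraries deviated with correlations of -0.01, -0.07 and -0.02. A replicate block left 2, 2 and 0 of the 6 genes called, and 18 and 18 other pathway genes.

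Depth limits Edn3, Edn1 and Ece2, which had 1 to 32 reads per library, and no result is given for the 4 genes without a row.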
